A study of Mus musculus with 10 samples.

Results

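Promoters rich in CpG dinucleotides, most of which form CpG islands, usually stay unmethylated in mammalian cells. In the growing oocyte DNA methylation is laid down mainly across transcribed regions, and the known exceptions among CpG islands include the control regions of imprinted genes, which receive their maternal mark there, and islands that lie inside a transcription unit begun further upstream. The regions described here are the CpG-dense promoter windows that carried methylation in all 3 pools of mouse oocytes arrested at metaphase II (MII), the stage at which the egg is ovulated. They were chosen by their measured coverage and levels. A window counted as CpG-dense when the pool that covered it best had 80 or more covered CpG positions, and as methylated when 20% or more of its CpG calls were methylated in each pool. This rule was met by 231 windows, which is 1.56% of the 14804 CpG-dense windows and 0.57% of the 40537 windows listed in all 3 pools.

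The pools were made from 3 libraries of 2-month Tet2 knockout (Tet2KO) oocytes, 3 of 11-month wild-type (WT) oocytes and 4 of 2-month WT oocytes, all of a C57BL6/129 background. Tet2 encodes a dioxygenase that oxidises 5-methylcytosine. The labels do not say how the knockout was made or which cells it affects, and they conflict on the input, with 10 oocytes per sample in one place and a single oocyte in another. Each pool gave 1 value per window and no value per library, so levels and differences have no replicate check, no test was run, and the intervals given cover counting error only. Bisulfite calls do not separate 5-methylcytosine from 5-hydroxymethylcytosine, so a level holds both.

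Each window spanned 2000 bp around an annotated transcript start (mm10), and windows of neighbouring starts often overlapped and shared calls. Merging the overlapping ones gave 124 loci, 68 of them with a single window and the largest with 9. Each locus is described by the window with the most calls in the pool that had the fewest. Of the 231 windows, 61 had the same calls in every pool as another. A RefSeq gene start within 200 bp of a window's centre named 89 loci. A further 25 had no such start but lay inside a protein-coding or lncRNA gene, more than 1000 bp from both of its ends. The other 10 met neither of these limits, so they may still lie near or at the edge of a gene.

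Promoter sequences of 7 starts are printed because the contrasts described next turn on them. Each runs 5′ to 3′ on the strand of its gene, from 250 bases before to 50 bases after the RefSeq start (GRCm38.p6, the assembly that mm10 represents). Capitals mark all CpG dinucleotides of the reference sequence. Only numbers of covered positions per window are given, so which of these CpGs were measured in a pool is not known. The pairs from Dnmt1, the maintenance methyltransferase gene, and Tgif1, a homeobox repressor of TGF-beta signalling, set a methylated inner start beside the unmethylated outer start of the same gene. Mest, a hydrolase gene expressed from the paternal allele, and Gnas, the gene of the stimulatory G protein alpha subunit, are imprinted. Maz, a zinc finger transcription factor gene, had more covered CpG positions than any other locus. The coordinates are chr9:20952574-20952873 and chr9:20959839-20960138 for Dnmt1 and chr17:70851161-70851460 and chr17:70853483-70853782 for Tgif1, inner before outer. They are chr6:30737800-30738099 for Mest, chr2:174327518-174327817 for Gnas and chr7:127026430-127026729 for Maz. Dnmt1, Tgif1 and Maz lie on the minus strand, and Mest and Gnas on the plus strand.
Dnmt1 inner start: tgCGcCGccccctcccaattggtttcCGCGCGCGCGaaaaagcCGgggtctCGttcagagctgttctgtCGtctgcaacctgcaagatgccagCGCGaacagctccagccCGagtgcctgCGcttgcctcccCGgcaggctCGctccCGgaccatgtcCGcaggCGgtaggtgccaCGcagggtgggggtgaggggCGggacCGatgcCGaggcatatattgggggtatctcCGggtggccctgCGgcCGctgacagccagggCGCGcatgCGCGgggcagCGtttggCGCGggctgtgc
Dnmt1 outer start: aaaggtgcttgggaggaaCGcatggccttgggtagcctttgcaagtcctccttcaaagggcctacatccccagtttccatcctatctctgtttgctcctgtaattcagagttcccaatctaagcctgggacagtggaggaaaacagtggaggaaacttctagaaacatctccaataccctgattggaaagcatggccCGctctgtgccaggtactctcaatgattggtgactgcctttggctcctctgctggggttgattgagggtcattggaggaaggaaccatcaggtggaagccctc
Tgif1 inner start: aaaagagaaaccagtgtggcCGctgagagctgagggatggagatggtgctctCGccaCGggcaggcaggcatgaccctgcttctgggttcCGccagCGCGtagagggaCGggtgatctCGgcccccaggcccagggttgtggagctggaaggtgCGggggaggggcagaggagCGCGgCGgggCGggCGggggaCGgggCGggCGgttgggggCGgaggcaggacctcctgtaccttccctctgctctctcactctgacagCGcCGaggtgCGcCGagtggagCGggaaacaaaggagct
Tgif1 outer start: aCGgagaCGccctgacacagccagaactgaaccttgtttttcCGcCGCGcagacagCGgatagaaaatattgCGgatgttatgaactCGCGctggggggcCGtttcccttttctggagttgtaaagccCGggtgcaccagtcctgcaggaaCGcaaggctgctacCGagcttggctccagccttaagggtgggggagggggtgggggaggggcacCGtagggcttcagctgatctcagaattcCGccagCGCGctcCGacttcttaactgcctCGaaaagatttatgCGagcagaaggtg
Mest inner start: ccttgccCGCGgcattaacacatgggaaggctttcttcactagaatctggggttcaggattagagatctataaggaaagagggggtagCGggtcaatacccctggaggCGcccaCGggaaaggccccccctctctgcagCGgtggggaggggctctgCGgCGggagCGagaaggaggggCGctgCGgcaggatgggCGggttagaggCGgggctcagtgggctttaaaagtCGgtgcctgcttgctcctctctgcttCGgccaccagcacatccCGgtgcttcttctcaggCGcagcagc
Gnas inner start: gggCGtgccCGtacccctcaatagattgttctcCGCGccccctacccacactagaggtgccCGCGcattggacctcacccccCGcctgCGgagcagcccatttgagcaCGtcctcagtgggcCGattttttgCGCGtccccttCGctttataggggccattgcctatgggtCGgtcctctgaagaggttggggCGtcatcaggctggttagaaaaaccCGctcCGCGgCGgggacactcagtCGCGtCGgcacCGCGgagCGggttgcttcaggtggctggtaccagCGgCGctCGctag
Maz start: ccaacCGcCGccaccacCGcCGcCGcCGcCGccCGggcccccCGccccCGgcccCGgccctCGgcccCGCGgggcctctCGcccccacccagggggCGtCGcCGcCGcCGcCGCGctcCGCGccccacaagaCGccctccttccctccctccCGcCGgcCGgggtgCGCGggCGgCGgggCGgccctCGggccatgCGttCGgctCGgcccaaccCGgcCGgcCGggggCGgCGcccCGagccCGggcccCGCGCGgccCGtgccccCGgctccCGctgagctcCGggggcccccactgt
The inner Dnmt1 sequence holds 33 CpGs and the outer 2. The inner and outer Tgif1 sequences hold 23 and 20, so the pair differs far less in CpG content than the Dnmt1 pair. Mest holds 17, Gnas 28 and Maz 51.

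Summed over all listed windows, the CpG calls came to 8610762 for Tet2KO, 30431118 for 11-month WT and 15046863 for 2-month WT. Of these, 5464356, 16993810 and 9392359 lay outside the mitochondrial and Y chromosomes, so the knockout pool was the shallowest. A call that lies in several overlapping windows is counted in each of them in these sums. The median CpG-dense window had 213, 679 and 343 calls in that order of pools. A count of 0 at these depths allows a level of up to 1.41%, 0.442% and 0.875%. This limit is 3 over the number of calls and is not a Wilson interval. The member loci were covered more thinly than the other CpG-dense loci. Their median number of calls was 86 in Tet2KO, 303.5 in 11-month WT and 140 in 2-month WT, against 219, 695 and 350 at the 7434 others. Per covered position these were 1.68, 3.07 and 2.06 calls at member loci and 2.48, 6.27 and 3.46 calls at the others. Whether coverage has a part in the levels was not tested. At 101 of the 124 loci the lower bound of the Wilson 95% interval was itself 20% or more in every pool. The 11-month WT pool, the deepest, was the one that covered most positions at 219 of the 231 windows.

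The rule used the levels, so they are a description. Over the 124 loci the median level was 72.8% in Tet2KO, 67.3% in 11-month WT and 64.6% in 2-month WT, against 1.34%, 1.69% and 1.92% at the other CpG-dense loci. The loci were grouped by whether their level reached 80%, a limit set for description. At 45 loci the level was 80% or more in every pool, at 58 it was below 80% in every pool, and at 21 it reached 80% in only 1 or 2 pools. The 45 fully methylated loci had medians of 97.8% in Tet2KO, 97.2% in 11-month WT and 97.5% in 2-month WT, and 39 of them were at 90% or more in every pool. The 58 intermediate loci had medians of 32.8%, 37.4% and 35.2% in the same order of pools.

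**Figure D1:**
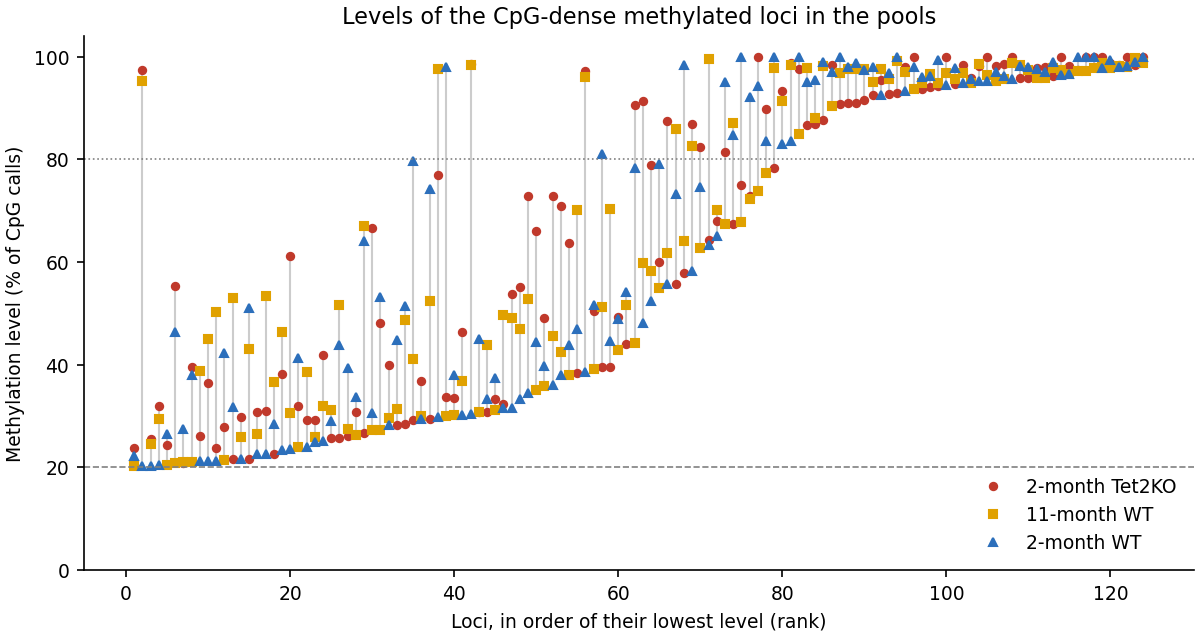
Methylation level (percent of CpG calls) of the 124 member loci in the Tet2KO, 11-month WT and 2-month WT pools, ordered by the lowest of the 3, with a grey line joining the pools of a locus. The 45 loci at 80% or more in every pool lie to the right in a narrow band near the top, while at the other loci the lowest pool runs down to 20%, the limit set by the rule, and the pools often differ.

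The fully methylated loci included starts of genes with very different roles. The Maz window (chromosome 7, 127025527 to 127027526) was at 98.3%, with a Wilson interval of 94.1 to 99.5, in Tet2KO (120 calls). In 11-month WT it was at 99.8%, with an interval of 98.7 to 100 (426 calls), and in 2-month WT at 99.1%, with an interval of 94.8 to 99.8 (106 calls). All 3 pools were thus almost completely methylated, over 69 covered positions in Tet2KO, 178 in 11-month WT and 83 in 2-month WT. Neurog3, a transcription factor of endocrine pancreas development, was at 96.3%, 97.9% and 99.0% in Tet2KO, 11-month WT and 2-month WT. Slc27a3, an acyl-CoA synthetase of the fatty acid transport family, was at 100%, 98.8% and 97.8%, and Gpr12, a constitutively active receptor known for holding oocytes in meiotic arrest in rodents, at 100% of 17 calls, 97.7% of 175 and 100% of 59. P4htm, a prolyl hydroxylase of the endoplasmic reticulum, Map1s, a microtubule-associated protein, Inafm1, Lrch1 and Cbarp, a calcium channel regulator, were at 95% or more in every pool. At Cbarp this held for the representative window. Over the 2 overlapping window positions at Cbarp, levels ranged by 86.5 points in Tet2KO, 84.7 in 11-month WT and 85.5 in 2-month WT. The member window of Foxp4, a forkhead repressor, was at 92.6%, 95% and 97.9%. Within the 20 points that this class allows, highest and lowest pool differed by a median of 3.44 points over the 45 loci, and by no more than 10 points at 40 of them.

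The intermediate loci, at levels between 20% and 80%, included starts of genes with varied roles as well as windows without a named start. Rasl11b, a small GTPase of the Ras family, was at 25.6% of 317 calls in Tet2KO, 24.5% of 1046 in 11-month WT and 20.3% of 281 in 2-month WT. Timm13, a chaperone of mitochondrial protein import, was at 30.7%, 26.4% and 22.5%, and Aktip, a partner of the kinase AKT, at 29.7%, 25.9% and 21.6%. Golim4, a Golgi membrane protein, and Chd4, the helicase of the NuRD complex, lay between 24% and 38% in every pool at their representative windows. The same held for Lsr, a tricellular junction protein. Over the 3 window positions of the Chd4 locus, levels ranged by 23.1 points in Tet2KO, 18.5 in 11-month WT and 9.37 in 2-month WT. Hprt, the purine salvage enzyme on the X chromosome, was at 30.7%, 26.3% and 33.6%. Vps37a, a subunit of the sorting complex ESCRT-I, was at 44.0%, 51.7% and 54.1% over as many as 142 positions. A level between 20% and 80% in a pool does not show whether single molecules were partly methylated or a share of them fully, since the tables give no reads.

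The thresholds of the rule passed through a continuous range of values. Just inside the level threshold lay windows at Nav1, with a lowest pool of 20.1% in 11-month WT, at Susd4, at 20.2% in the same pool, and inside Shh, at 20.2% in 2-month WT. Just outside it, Ippk was at 31.9% in Tet2KO, 71.2% in 11-month WT and 19.8% in 2-month WT, and Tmem200b at 26.5%, 20.7% and 19.7%. Of the CpG-dense windows, 26 had a lowest pool between 20% and 22% and 16 between 18% and 20%. At exactly 80 positions there were 8 windows, among them those of Grasp, Taf7l2 and Pim2, and at 79 positions 10 methylated windows just missed the rule, among them those of Stxbp5l and Plekhh3. A further 603 CpG-dense windows were at 20% or more in only 1 or 2 pools, and 13970 (94.4%) were below 20% in all 3.

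The position of a start relative to genes was not used by the rule. Of the 124 loci, 60 (48.4%) had their centre inside a protein-coding or lncRNA gene and more than 1000 bp from both of its ends, against 1449 of the 7434 other CpG-dense loci (19.5%). The share was 26 of 45 (57.8%) among the fully methylated loci, 11 of 21 (52.4%) among those at 80% in 1 or 2 pools, and 23 of 58 (39.7%) among the intermediate ones. With a margin of 500 bp the shares were 62.1% of members and 30.1% of the others, and with 2000 bp they were 33.9% and 12.7%. Members were thus more often inside genes at each of the 3 margins, a description over loci, which are not replicates. Inside Ankrd50, a window was at 100%, 98.9% and 100% in Tet2KO, 11-month WT and 2-month WT, and inside Auts2 at 100%, 97.3% and 96.4%. Fem1al lies within Eml6, a gene of a microtubule-associated protein, and Taf7l2 within Ptprr, a receptor-type phosphatase gene, and both were at 94% or more in every pool.

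**Figure D2:**
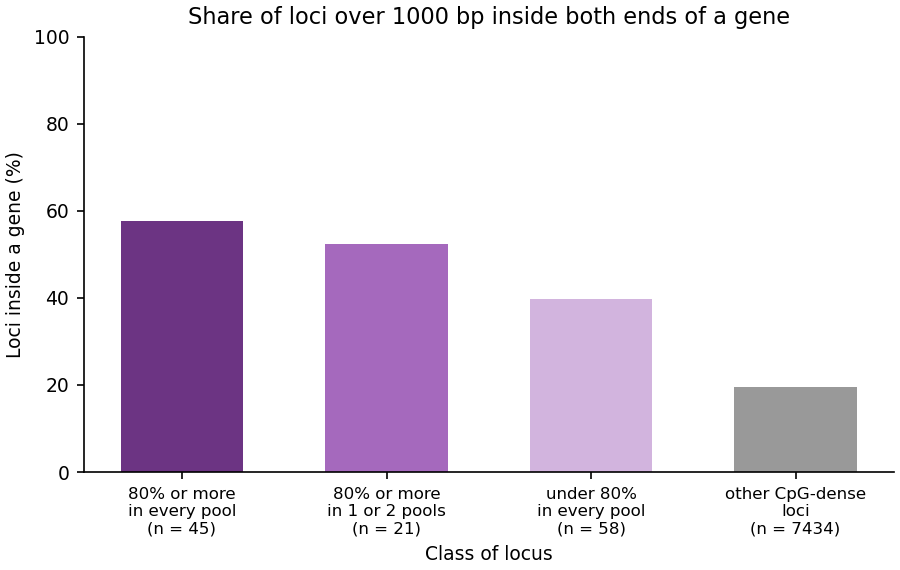
Share of loci (percent) whose centre lies inside a gene and more than 1000 bp from its ends, for member loci in 3 classes of level and for the other CpG-dense loci, with the number of loci under each bar. The bars stand at 57.8%, 52.4% and 39.7% for the members and at 19.5% for the others.

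Where the strand of the surrounding gene was known, its own outer start could be set beside the inner one. Of the 60 interior loci, 50 had such a host gene, and for 23 of these the outer start had a shared window, of any CpG density. At 22 of the 23 the outer start was below 20% in all 3 pools, and at 20 of them below 10%. The inner starts of the 23 had medians of 93.8% in Tet2KO, 94.9% in 11-month WT and 95.6% in 2-month WT, and the outer starts 1.36%, 2.16% and 2.38%. The exception was F930015N05Rik, a lncRNA gene around the Hs3st3a1 start, whose outer window overlaps the inner and was at 98.6%, 96.3% and 96.5%. Of the 23 outer starts, 3 lay within 2000 bp of the inner start, so that their windows share sequence with it. Low outer starts were common among the other CpG-dense interior loci too, at 312 of 358 in all 3 pools, so a low outer start does not set the members apart. Their inner starts were the ones that differed, with medians of 1.29%, 1.78% and 1.89%, and that difference is the one the rule selected.

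Dnmt1 was the sole member among 11 genes of the methylation machinery with a CpG-dense window, and its methylated start is an inner one. The inner window (chromosome 9, 20951624 to 20953623) was at 98.2%, with an interval of 93.6 to 99.5, in Tet2KO (109 calls). In 11-month WT it was at 95.3%, with an interval of 92.0 to 97.3 (257 calls), and in 2-month WT at 97.0%, with an interval of 91.6 to 99.0 (101 calls). The outer window, 7264 bp upstream (20958889 to 20960888), was at 0% of 47 calls in Tet2KO, which allows a level of up to 6.38%, at 3.92% of 51 calls in 11-month WT and at 2.38% of 42 calls in 2-month WT. Mouse Dnmt1 is known to be transcribed in oocytes from a promoter of its own upstream of the somatic one. In all 3 pools the outer start was nearly free of methylation and the inner start nearly full. The outer start is CpG-poor, with 25 covered positions. A further inner window, 356 bp away with 75 positions, was at 96.3%, 92.6% and 100%. The CpG-dense windows of Dnmt3a, Uhrf1, Setd2, Nsd1, Trim28, Tdg, Mbd3, Kdm1b and Mbd2 were below 9% in each pool, and those of Tet2 itself at 2.87% in Tet2KO, 7.12% in 11-month WT and 14.02% in 2-month WT.

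The same arrangement was seen at genes of other functions. Tgif1 was at 95.9%, 94.95% and 95.6% at the inner start in Tet2KO, 11-month WT and 2-month WT, and at 3.73%, 3.42% and 8.20% at the outer start 2462 bp upstream, with 86 and 98 positions. Both Tgif1 windows are CpG-dense, and a window 665 bp from the inner one towards the outer was still at 88.4%, 86.6% and 88.9%. Sgk1, a kinase induced by serum and glucocorticoids, was at 100% of 38 calls, 96.4% of 307 and 95.3% of 64 at the inner start, and at 0% of 37, 2.16% of 278 and 2.53% of 79 at the outer start 111705 bp away. At Fbrsl1 the inner start was at 86.8%, 97.7% and 95.2% and the outer at 0.864%, 1.68% and 1.89%. Intermediate members showed the contrast as well. Slc30a3, a zinc transporter of synaptic vesicles, was at 30.8%, 30.7% and 45.1% inside, with an outer start at 0.98%, 0% and 0%, from 102, 72 and 41 calls. The inner levels are those of the representative window. Over the 2 window positions there, levels ranged by 29.5, 28.6 and 42.5 points in the same order of pools. Inside Gng12, a G protein gamma subunit gene, the level was 29.5%, 52.4% and 74.3%, while its outer start was at 0%, 1.56% and 0%.

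**Figure D3:**
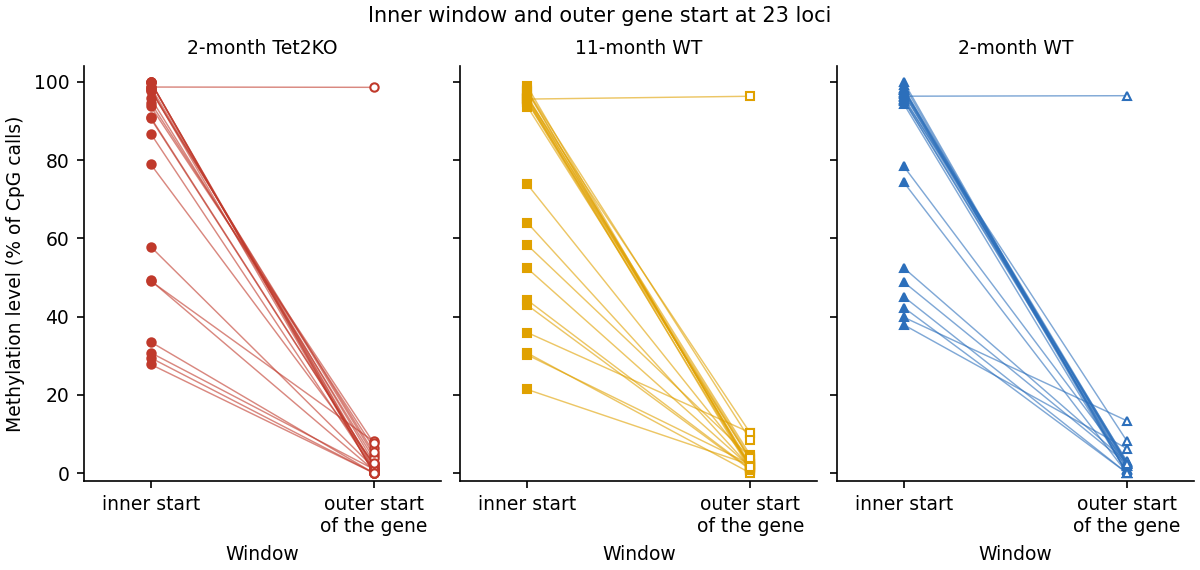
Methylation level (percent of CpG calls) of inner member starts and of the outer start of the gene around them, for the 23 loci with both, joined by a line, in the Tet2KO, 11-month WT and 2-month WT pools. Outer starts lie at 13.4% or less in every pool except at F930015N05Rik. The outer windows of F930015N05Rik, Gm10516 and Hmgb1 overlap the inner ones.

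Imprinted genes formed the other recognisable group. Of 38 listed genes known for control regions methylated in the oocyte, or lying beside them, 15 had a CpG-dense window and 7 were members, in 5 loci, against 101 of 7900 symbols in all (1.28%). Plagl1 and Hymai, a growth-regulating zinc finger gene and its noncoding partner, were at 94.2%, 96.6% and 96.2% in Tet2KO, 11-month WT and 2-month WT. Mest was at 93.8% of 128 calls, 94.9% of 293 and 96.1% of 152 at its inner start, against 7.69% of 13 calls, 1.32% of 151 and 3.06% of 196 at the outer start 4543 bp upstream. Nnat, a proteolipid of the neonatal brain whose gene lies within an intron of Blcap, was at 90.9% of 11 calls, 97.5% of 162 and 98.1% of 103, and the Blcap start was at 2.04%, 1.62% and 2.80%. Each of these 4 genes was nearly fully methylated in every pool, and the Nnat level in Tet2KO rests on very few calls.

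The Gnas domain had a single member among its CpG-dense windows. Gnas starts with fewer covered positions are not described here. The member window (chromosome 2, 174326768 to 174328767) was at 97.8% of 136 calls in Tet2KO, 95.9% of 318 in 11-month WT and 97.5% of 122 in 2-month WT. The outermost Gnas start, 43447 bp upstream, was at 5.26%, 10.2% and 2.47%, and the window starting at 174329006, about the next start downstream, at 12.7%, 17.7% and 16.8%. Levels fell off within the distance between adjacent windows, in all 3 pools. Peg10, a gag-pol derived gene, and Sgce, the sarcoglycan it shares a start region with, held the locus with the most windows, 9. Its level was 67.9% of 53 calls, 70.1% of 127 and 65.0% of 40 in its representative window. In the window 289 bp further on it was 86.7% of 75 calls, 89.6% of 193 and 66.7% of 39. Calls thus rose in Tet2KO and 11-month WT, but 2-month WT had 26 methylated calls in both windows. The pools can therefore not be compared over the sequence that the further window adds. The 8 listed genes that were not members, Grb10, Igf2r, H13, Zdbf2, Blcap, Copg2, Peg12 and Inpp5f, were below 9% in each pool at their CpG-dense windows. These windows surround annotated starts and may not hold the imprint control region itself.

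Other lists contributed few members or none. None of the CpG-dense windows of 3 paternal imprint genes, Igf2, Dlk1 and Rasgrf1, was a member, and they lay between 0% and 2.33%. The same was true of 5 germline genes, Ddx4, Dazl, Sycp1, Stag3 and Taf7l, 3 oocyte genes, Gdf9, Zar1 and Kit, and 3 granulosa cell genes, Inhbb, Wt1 and Foxl2, at 0% to 15.8%. A promoter that is unmethylated in oocytes cannot tell them from granulosa cells in which it is active, so the granulosa gene windows do not check the labelled cell type. The windows of the other lists were not used to test it. Among families taken by the start of the symbol, none of 92 Zfp, 33 Rpl, 31 Kcn, 30 Rps, 17 Hox, 15 Sox, 11 Wnt, 8 Gata, 7 Pcdh, 7 Cacna, 6 Pax and 5 Tbx genes was a member. Members made up 3 of 138 Slc genes (2.17%), 2 of 85 Tmem (2.35%), 1 of 35 Fox (2.86%), 1 of 21 Gpr (4.76%), 1 of 20 Adam (5%), 1 of 15 Fgf (6.67%) and 1 of 14 Col (7.14%). Of 9 housekeeping genes 1 was a member, Hprt. Beside the 1.28% over all symbols, counts of 0 to 3 set no family apart.

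Promoter sequences were found for the representative window of 75 member loci and of 5043 other CpG-dense loci. Members had a median of 23 CpGs per 300 bases, others 28, and all 32851 RefSeq promoters 7. The ratio of observed to expected CpG was 0.781 at members, 0.863 at the others and 0.384 over all promoters, with G and C making up 66.3%, 66.7% and 52.7% of bases. Members were therefore close to the other CpG-dense promoters in base composition, with somewhat fewer CpGs. TGCCGC, the core bound by Zfp57, a zinc finger protein that keeps imprints in the early embryo, was found on either strand in 29.3% of members, 26.6% of the others and 11.6% of all promoters. The GC box GGGCGG was in 72.0%, 80.2% and 35.7%, and TATAAA in 10.7%, 5.16% and 13.6%, in the same order. These are matches of letters in 300 bases and say nothing of binding.

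Members were found on every chromosome in the tables except 18, where there were 205 other CpG-dense loci. Chromosome 10 held 16 loci (4.20% of its CpG-dense loci) and chromosome 8 held 13 (3.02%), while chromosome 11, with 628 other CpG-dense loci, held 6 (0.946%). Of 124 loci, 50 had another shared window within 10000 bp that did not overlap them, and 20 of these neighbours (40.0%) were at 20% or more in all pools, against 649 of 2198 (29.5%) for the other CpG-dense loci. Among neighbours that were CpG-dense themselves, 0 of 16 were at 20% or more in all pools, against 13 of 463 (2.81%) for the other CpG-dense loci. The sequence between a locus and its neighbour was not measured, and these counts are too small to set the members apart.

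Overlapping windows gave levels at more than 1 position of a locus. Levels could be followed over several window positions at 78 loci, and they differed by 20 points or more at 20 loci in Tet2KO, 15 in 11-month WT and 16 in 2-month WT. At fully methylated loci the median range over positions was 0.429, 0.239 and 1.18 points, and at intermediate loci 7.80, 5.81 and 9.37 points. Windows are 2000 bp long and share calls, so a slope over window positions does not show how sharp a border is. Inside Gnb2, a G protein beta subunit gene, the member window was at 27.8% in Tet2KO, 21.4% in 11-month WT and 42.3% in 2-month WT. The window at -1703 bp from it along the chromosome was at 98.9%, 97.4% and 85.6%, and that at 1945 bp was at 0%, 2.08% and 0%. The intermediate level at Gnb2 thus belonged to a window between a nearly full and a nearly empty one.

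Socs2, a suppressor of cytokine signalling, had a similar fall. The member window was at 87.0%, 82.5% and 58.3%, the window 929 bp further at 16.1%, 27.4% and 28.3%, and that 2091 bp further at 1.46%, 0.727% and 0.585%. At Hmgb1, a chromatin architectural protein, a member window at 49.2%, 42.9% and 48.8% was followed 1711 bp on by a window at 0.745%, 0.843% and 2.41%. At Fbxl19, a CpG-binding F-box protein, levels climbed over 2361 bp, with 32.0%, 23.9% and 41.3% in the member window and 96.8%, 95.2% and 96.6% in the window at that distance. Gm10516, a predicted gene within Rcor3, had 66.9%, 49.2% and 74.5% at -207 bp from its representative window and 8.06%, 10.3% and 13.4% at 1032 bp. The direction along each of these 5 loci was shared by all 3 pools. Vps37a and Tmem267 showed no such slope: over 5 windows Tmem267 stayed between 53.8% and 55.4% in Tet2KO, 49.0% and 49.3% in 11-month WT, and 25.7% and 31.5% in 2-month WT. Tmem267 was covered more deeply in 11-month WT than all but 1 of the other loci.

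**Figure D4:**
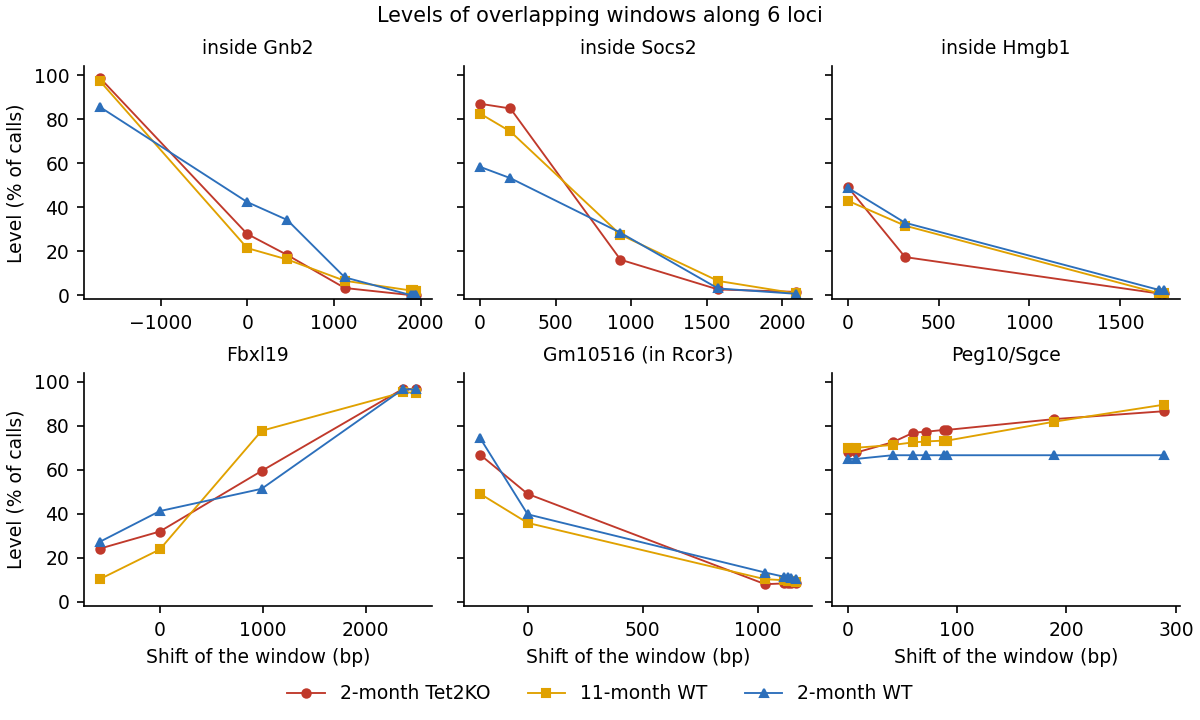
Methylation level (percent of CpG calls) of overlapping windows against their distance from the member window (bp along the chromosome) at loci with a slope, 1 line per pool. At Gnb2, Socs2, Hmgb1 and Gm10516 levels fall to the right and at Fbxl19 they climb, in the Tet2KO, 11-month WT and 2-month WT pools alike. At Peg10 and Sgce they climb in Tet2KO and 11-month WT, while the 2-month WT line is nearly flat. That pool had 39 or 40 calls in each member window there, so its line says little about the sequence added by the shift.

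Differences between pools were counted at 20 points or more. In Tet2KO against 2-month WT, 34 of the 231 windows were higher and 16 lower, in 16 and 10 of the 124 loci. Over all shared windows 3.29% were higher and 3.22% lower, and over CpG-dense ones 0.621% and 1.6%. In 11-month against 2-month WT, 30 windows were higher and 21 lower, in 13 loci each way, with 2.78% and 2.76% over all shared windows and 0.473% and 1.39% over CpG-dense ones. In Tet2KO against 11-month WT, 25 were higher and 26 lower, in 13 loci each way, with 2.09% and 1.94% over all shared windows and 0.405% and 0.372% over CpG-dense ones. The rule used these levels, and a window near 0 can differ by 20 points in 1 direction only, so nothing is read from the members' larger shares. The 45 fully methylated loci could not differ by more than 20 points, since their class begins at 80% in every pool. Median differences over the loci were 0.451 points for Tet2KO minus 2-month WT, -0.557 for 11-month minus 2-month WT and 1.13 for Tet2KO minus 11-month WT.

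At one set of loci with large differences, taken for this pattern, 2-month WT stood apart and Tet2KO and 11-month WT lay on the same side of it. The 2 comparisons with 2-month WT share that pool, so their values are not separate evidence. Inside Shh, the gene of the sonic hedgehog morphogen, a window (chromosome 5, 28457274 to 28459273) was at 97.4% of 39 calls in Tet2KO, 95.3% of 191 in 11-month WT and 20.2% of 183 in 2-month WT. The difference was 77.2 points for Tet2KO (interval 64.8 to 82.8) and 75.1 for 11-month WT (67.5 to 80.7), each minus 2-month WT. Adam22, a neuronal membrane protein of the ADAM family, was at 97.1%, 96.0% and 38.6%, and Rhog, a small GTPase, at 76.9%, 97.6% and 29.8%. A window near Tcf15, a transcription factor of somite formation, was at 98.6%, 98.3% and 30.3%. Rap1gap2, a GTPase-activating protein for Rap1, ran the other way, at 33.6% of 113 calls, 29.98% of 537 and 98.0% of 98. B3gnt9, a glycosyltransferase, was at 29.2%, 41.1% and 79.7%, and Ephb4, a receptor kinase of venous endothelium, at 39.5%, 51.2% and 81.1%. High and low levels in 2-month WT both occurred among these 7 loci.

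Other loci set Tet2KO apart. Junb, an AP-1 transcription factor, was at 26.6%, with an interval of 21.0 to 33.2, in Tet2KO (199 calls). In 11-month WT it was at 67.1%, with an interval of 61.8 to 71.9 (328 calls), and in 2-month WT at 64.2%, with an interval of 60.3 to 67.8 (628 calls). The Junb difference was -37.5 points from 2-month WT (-44.3 to -29.96) and -40.4 from 11-month WT (-47.9 to -32.0). Higher in Tet2KO were Eef2k, the kinase of elongation factor 2, at 91.4%, 59.8% and 48.0%, S1pr2, a sphingosine-1-phosphate receptor, at 61.1%, 30.5% and 23.5%, and Riox1, a histone demethylase and ribosomal oxygenase, at 72.9%, 45.5% and 36.0%. Hace1, a ubiquitin ligase, was at 70.9%, 42.6% and 37.9%, and Ggnbp2 at 66.7% of 42 calls, 27.2% of 294 and 30.6% of 291. Lower in Tet2KO than in both WT pools were also the start shared by Gm7008 and Ifrd1, at 21.7%, 43.1% and 51.0%, and Midn, a protein that brings others to the proteasome, at 28.5%, 48.6% and 51.4%. Stim1, the calcium sensor of the endoplasmic reticulum, was also highest in Tet2KO, at 72.8%, 52.8% and 34.4%. There the WT pools differed as well, with 11-month WT 18.4 points above 2-month WT (10.1 to 26.1). Loci with Tet2KO below both WT pools and loci with Tet2KO above both thus occurred side by side, and without values per library the spread between libraries of 1 genotype is unknown.

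Further loci set 11-month WT apart. Fgfr1, a fibroblast growth factor receptor, was at 64.3% of 14 calls in Tet2KO, 99.6% of 240 in 11-month WT and 63.2% of 117 in 2-month WT. The Fgfr1 interval in Tet2KO was 38.8 to 83.7, so that value is loose. Ctxn1, a neuronal membrane protein, was at 38.4%, 70.2% and 47.0%, Hivep1, a zinc finger protein, at 39.5%, 70.3% and 44.6%, and the start shared by Kctd21 and Usp35 at 31.0%, 53.5% and 22.6%. Elavl2, a neuronal RNA-binding protein also expressed in oocytes, was lowest at 11 months, at 90.7%, 44.2% and 78.4%, while its outer start was at 2.00%, 1.05% and 2.38%. Over the 4 window positions of the Elavl2 locus, levels ranged by 42.8 points in Tet2KO, 40.4 in 11-month WT and 73.0 in 2-month WT. The differences between pools at Elavl2 are therefore given for its representative window only. Nav1, a neuron navigator, was at 55.3%, 20.8% and 46.3%.

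**Figure D5:**
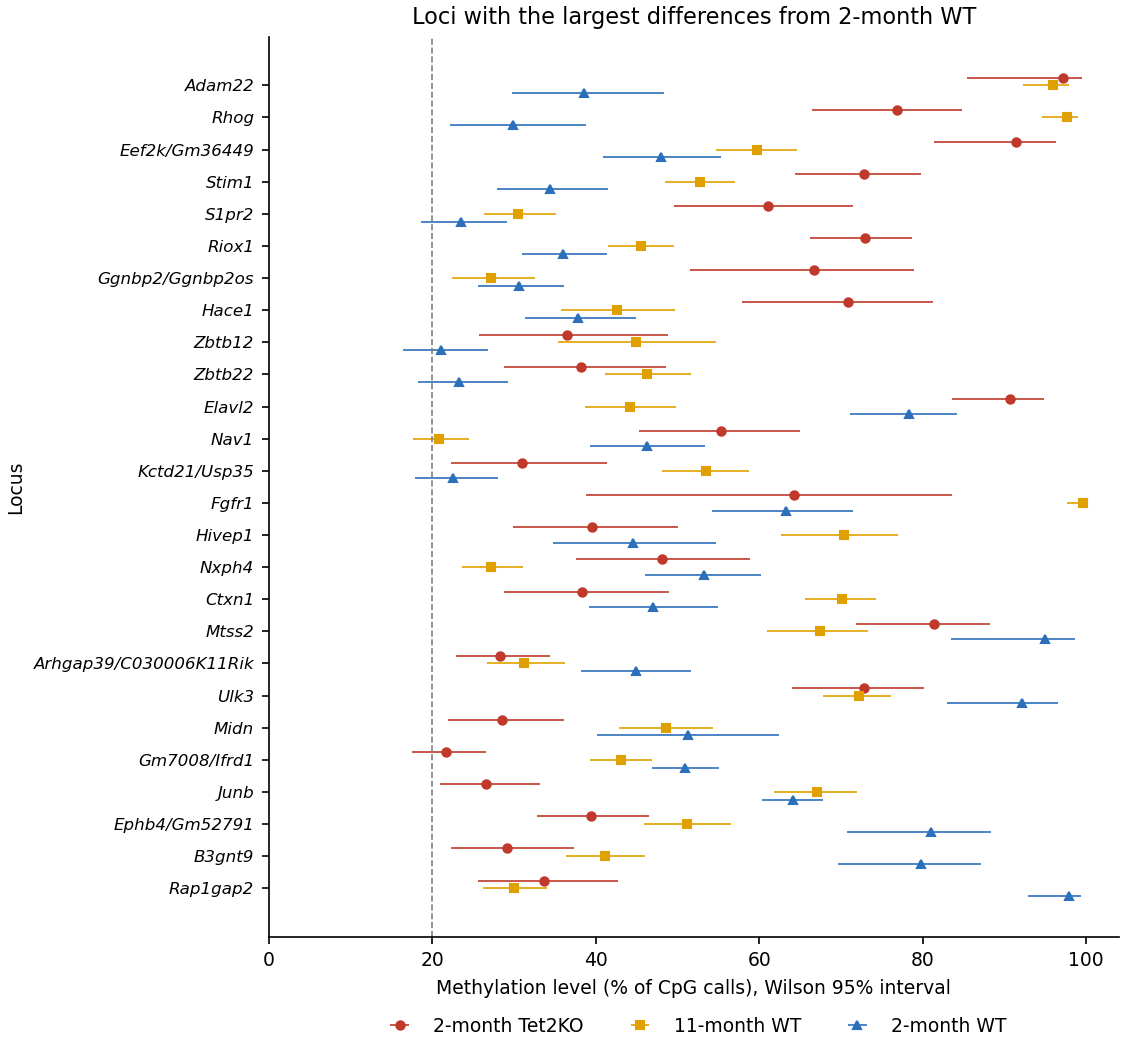
Methylation level (percent of CpG calls) in the Tet2KO, 11-month WT and 2-month WT pools at the loci with a named gene start that differed most from 2-month WT, with Wilson 95% intervals for counting error and a dashed line at 20%. At Adam22 and Rhog 2-month WT is the lowest pool, at Rap1gap2, B3gnt9 and Ephb4 the highest, and at Junb, Ifrd1 and Midn Tet2KO is the lowest.

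Of the 124 loci, 2 had more than 10 calls per covered position in some pool, and 1 other lay at a repeated gene. Tmem267 had 7.42, 22.5 and 3.92 calls per position in the Tet2KO, 11-month WT and 2-month WT pools. A window to which the RefSeq table used here gave no name (chromosome 17, 39842013 to 39844012) was at 24.3% of 19042 calls in Tet2KO, 20.5% of 51920 in 11-month WT and 26.6% of 32375 in 2-month WT. A window at n-R5s149, a 5S ribosomal RNA gene (chromosome 8, 123621047 to 123623046), was at 98.4%, 98.3% and 97.9%. These levels hold for the representative window. Over the 3 overlapping window positions of this locus, levels ranged by 93.3 points in Tet2KO, 22.3 in 11-month WT and 47.9 in 2-month WT. Reads from copies of a repeat cannot be assigned to 1 copy with certainty, so the levels of the chromosome 17 and 5S windows may stand for several copies. Without these 2 windows 229 members remained.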

How the data were processed

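The data are low-input bisulfite sequencing of MII oocytes, given as 1 table of promoter windows for each of 3 pools (Tet2KO, 11-month WT, 2-month WT). Per the submitters' processing notes, Trimmomatic, Bismark (version field 12.5) and mm10 were used, with no roles or order given, and no source used here describes other steps. The authors deposited whole-number counts of methylated CpG calls per window. The deposited coverage is the number of all CpG calls, and a further deposited column gives the covered CpG positions. The deposited fraction is the authors' own methylation level per window and served as an alternative. Whether the cytosines of both strands of a CpG count as separate positions is not stated. The table for 2-month WT ends within a line on chromosome X, and X windows past that point were not analysed here.

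The level is 100 times methylated over all calls. Windows were joined by position and transcript over the 3 tables, without the mitochondrial and Y chromosomes. With 1 pooled value per group no test was possible, and Wilson (levels) and Newcombe (differences) 95% intervals cover counting error only; calls from PCR copies or the same read are not independent. Names and promoter sequences come from RefSeq tables of GRCm38.p6, by a start within 200 bp of the window's centre. Genes were named by rank of lowest level, covered positions and differences (the 8 highest and 8 lowest in each comparison), by list membership, number of windows and nearness to the thresholds; windows inside a gene, near Tcf15, and in the paragraphs on borders, hosts and repeats were also picked after their values were seen. The members and lists were chosen with earlier results of these data known. The selection was tested on simulated data. Python 3.11.15, pandas 2.3.3 and numpy 2.4.6 were used.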

Additional observations from a re-analysis of the deposited data

How the results depend on the processing

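The 231 windows and 124 loci became 540 and 313 with 60 or more positions, 92 and 51 with 100 or more, and 33 and 16 where the pool that covered fewest had to reach 80. They became 485 and 276 with a level of 10% or more, 112 and 63 with 50% or more, 76 and 45 with 80% or more, and 81 and 42 with 100 or more calls in every pool. Merging only windows with identical calls gave 197 loci. The share of loci inside genes (48.4%) was 37.5% with 80 positions in the pool that covered fewest, 36.2%, 57.1% and 57.8% at levels of 10%, 50% and 80%, and 62.1% and 33.9% at margins of 500 and 2000 bp, which were chosen after seeing the data. The median window level of 11-month WT (62.7%) was 67.3% with 1 window per locus and 67.4% without windows over 10 calls per position, and that of 2-month WT (63.2%) was 57.3% by the deposited fraction. For Tet2KO minus 2-month WT the counts higher and lower (34 and 16) were 61 and 36 at 10 points and 16 and 10 with 1 window per locus, and 22 were higher with 50 or more calls. For 11-month minus 2-month WT (30 and 21) they were 50 and 38 at 10 points, 13 and 9 at 30 points, 13 and 13 with 1 window per locus, and 11 lower by the deposited fraction. For Tet2KO minus 11-month WT (25 and 26) they were 47 and 41 at 10 points, 15 and 12 at 30 points, 13 and 13 with 1 window per locus, and 17 lower by the deposited fraction. Changed thresholds admit or remove windows by construction; the cause of the other shifts was not tested. The other 42 alternative values moved less, counts by up to 1.5 times: 157 windows and 91 loci had 50 or more calls in every pool. The order of pools turned in places: the median window level of 11-month WT was below that of 2-month WT, while the mean was above it (65.2% and 63.3%), and Tet2KO minus 11-month WT had 22 windows higher by the deposited fraction, more than it had lower. Of the depth limits, levels from under 50 calls, as at Fgfr1, Nnat and Gpr12 in Tet2KO, are the loosest. No paired analysis was possible because each table holds 1 pooled value per group; leaving out a library was not run for the same reason.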
